A study of Rattus norvegicus with 22 samples.

Results

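Glutamate receptors and transporters were examined in the ventral portion of the rat cervical cord, in both sexes, with gonads present or removed. The 31 genes were taken by symbol from the 32883 genes of the deposited count table, where each symbol follows an Ensembl gene identifier. They comprised 4 AMPA receptor subunits, 7 NMDA receptor subunits, 5 kainate receptor subunits, 1 delta receptor subunit, 7 metabotropic receptors, 3 vesicular transporters and 4 plasma membrane transporters.

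Glutamate is the main excitatory transmitter of the spinal cord. Vesicular transporters load it into synaptic vesicles, ionotropic receptors of the AMPA, NMDA and kainate types open cation channels on motor neurons and interneurons, metabotropic receptors act through G proteins on both sides of the synapse, and transporters in the plasma membrane of astrocytes and neurons clear it. In the ventral horn of this region these synapses drive phrenic and forelimb motor neurons.

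RNA was sequenced from the ventral part of segments C3 to C6 of Sprague-Dawley rats of 3 to 4 months, 1 library per rat. The 4 groups were 5 males with intact testes, 5 males whose testes had been removed (GDX), 6 females with intact ovaries and 6 females whose ovaries had been removed (OVX). Gonadectomized rats were sampled 2 weeks after surgery. The study's methods describe buprenorphine before surgery and isoflurane during it. They name no sham operation for the intact rats, and loss of the gonads and the operation with these drugs then cannot be told apart.

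Libraries held 12371756 to 17571887 reads assigned to genes. The median was 14640726 in females with ovaries and 14766802.5 in those without, and 14196615 in males with testes and 15645521 in those without. Levels are given as CPM, read counts scaled to library size with TMM factors computed over the 22 libraries, and are compared between rats for the same gene only, because they are not corrected for gene length. The 5 or 6 rats of a group set the precision of each comparison. Libraries fell into a shorter and a longer class of average input fragment size: all 5 GDX and all 6 OVX libraries were of the shorter class, against 2 of 5 intact male libraries (rats 2 and 5) and 2 of 6 intact female libraries (rats 1 and 4). A gene was called different at an adjusted p under 0.1 by edgeR's quasi-likelihood test, with p-values adjusted over all genes tested in that comparison.

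Of the 31 genes, 26 passed the filter on low counts in each of the 5 comparisons made, 2 passed in some (Slc17a8 in 3 and Slc1a6 in 1) and 3 passed in none (Grm2, Grm6 and Slc17a7). Over the 22 libraries Grm2 had 2 to 14 reads, Grm6 had 0 to 11 and Slc17a7 had 0 to 18. Slc17a8 had 4 to 24 reads and Slc1a6 had 1 to 24. Grm2 encodes a presynaptic inhibitory receptor and Slc17a8 a vesicular transporter of few neurons. Grm6 is known for its role in retinal bipolar cells, Slc1a6 as the transporter of cerebellar Purkinje cells, and Slc17a7 as the vesicular transporter of cortical and primary afferent terminals. Grm2, Grm6 and Slc17a7 were therefore not tested. Slc17a8 was not called where tested, with wide 95% intervals for its log2 fold change: −0.39 to 0.90 in females, −0.99 to 0.35 for GDX males against OVX females and −1.89 to 0.28 for the difference between the responses of the sexes. Slc1a6 was tested for that difference alone (interval −1.30 to 1.42) and was not called.

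Castrated males had lower levels of 10 glutamate genes, 5 of them among the 7 NMDA receptor subunits. In GDX against intact males, 10 of the 26 glutamate genes tested were called and all 10 were lower, while 13.4% of the 14931 genes tested were called in either direction, 6.58% lower and 6.78% higher. The 10 were Gria3, Gria4, Grin1, Grin2a, Grin2b, Grin2d, Grin3b, Grik4, Grm3 and Slc17a6. The log2 fold changes of the 26 genes ran from −0.50 to −0.029 with a median of −0.18, and 26 of 26 were below 0. Over all genes tested the median was 0.0021 and 49.5% were below 0. Neuronal marker lists, described below, also lay low: 8 of 8 pan-neuronal markers were below 0 (median −0.173, 37.5% called lower). So were 5 of 5 inhibitory neuron markers (−0.295, 40%) and 7 of 8 motor neuron markers (−0.148, 12.5%). Of dorsal horn markers tested, 3 of 5 were below 0 (−0.036), and of ganglion markers 3 of 3 (−0.067). Groups did not overlap for 4 of the 26 genes, which were lower in GDX rats (Grin1, Grik4, Grm3 and Slc17a6), beside 3.94% of all genes tested that were lower and 3.53% that were higher without overlap. In OVX against intact females, 0 of 27 genes were called by edgeR, where 0.0335% of the 14910 genes tested were (0.00671% lower and 0.0268% higher). Of the 27, 3 had an unadjusted p under 0.05, beside 1516 of all 14910, and DESeq2 called 2, beside 174 genes in all. The median log2 fold change of the 27 genes in females was −0.034, against 0.00255 over all genes tested.

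**Figure D1:**
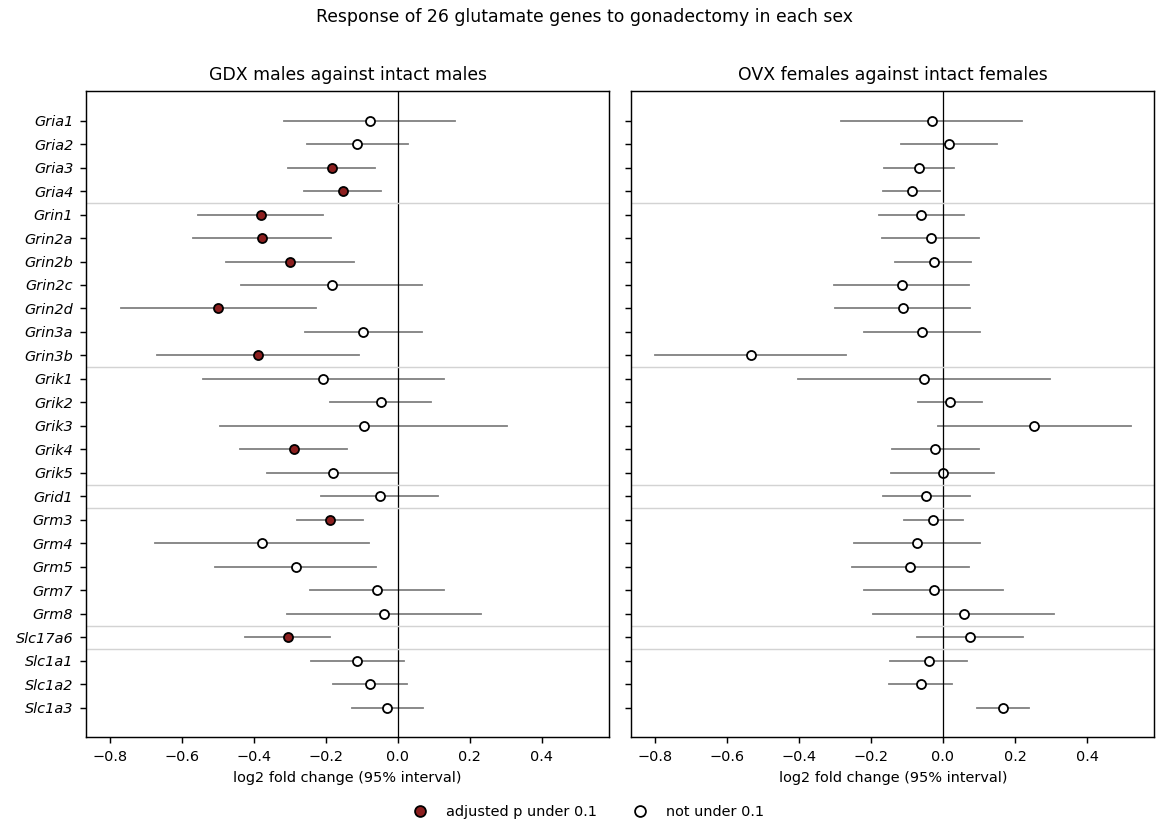
Log2 fold change of each of the 26 genes tested in both sexes (vertical axis, classes divided by grey lines, in the order AMPA, NMDA, kainate, delta, metabotropic, vesicular, plasma membrane), with the 95% interval as a bar, for GDX against intact males (left) and OVX against intact females (right). Filled points have an adjusted p under 0.1: 10 in males, each below 0, and 0 in females.

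**Figure D2:**
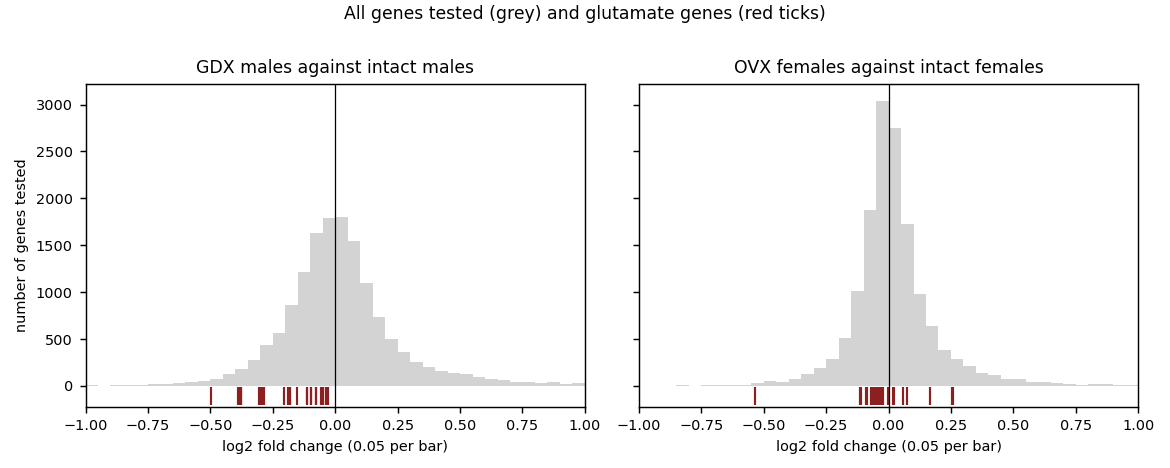
Number of genes (vertical axis) by log2 fold change (horizontal axis, bars 0.05 wide, shown from −1 to 1) for all genes tested in each sex, with the glutamate genes as red ticks under the bars. In males the 26 ticks lie between −0.50 and −0.029, while the grey bars are centred near 0.

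Upstream sequence was available for 20 of the 31 genes and for 5 of the 10 genes called in males (Gria4, Grin1, Grin2d, Grik4 and Slc17a6). Because Slc17a6 and Grin1 had the lowest adjusted p of these 5, the 250 bases before their annotated starts are shown, from RefSeq on build GRCr8, 5′ to 3′ on the strand of the gene, with CG pairs in capitals. The Slc17a6 sequence is at chr1:110348197-110348446 on the + strand and the Grin1 sequence at chr3:28528755-28529004 on the − strand.
Slc17a6: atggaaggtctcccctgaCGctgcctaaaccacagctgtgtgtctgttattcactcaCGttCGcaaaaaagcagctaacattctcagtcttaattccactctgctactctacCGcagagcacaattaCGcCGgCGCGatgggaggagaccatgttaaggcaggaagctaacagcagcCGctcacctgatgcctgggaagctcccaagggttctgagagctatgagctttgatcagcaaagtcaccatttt
Grin1: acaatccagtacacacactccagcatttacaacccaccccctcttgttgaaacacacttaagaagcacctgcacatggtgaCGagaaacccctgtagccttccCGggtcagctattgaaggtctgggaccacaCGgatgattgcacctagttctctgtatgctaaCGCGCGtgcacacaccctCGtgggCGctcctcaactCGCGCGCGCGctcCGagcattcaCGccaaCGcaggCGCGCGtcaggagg
Slc17a6 held 9 CG pairs with 50.8% G and C, and 61.5% of the 33469 promoters in the reference held fewer. Grin1 held 19 CG pairs with 57.6% G and C, and 81.6% of promoters held fewer. The median over all promoters was 5 pairs. On either strand, the palindromic estrogen response element was in 0 of the 20 sequences (0.0239% of all promoters) and the palindromic androgen response element in 0 of 20 (0.373%). The shorter motif AGAACA was in 3 of 20 (Grm7, Grm8 and Slc1a2) and in 0 of the 5 called genes, beside 17.5% of all promoters. The GC box GGGCGG was in 5 of 20 (Grik3, Grik5, Grm7, Slc17a7 and Slc1a6), again in 0 of the 5 called genes, beside 30.5% of all promoters. A match or its absence describes only the letters of these windows.

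AMPA receptors carry the fast excitatory current at spinal synapses, and their pores are built from the products of Gria1 to Gria4. Gria4 (ENSRNOG00000006957), the AMPA subunit gene with the most reads here, was at 161, 156, 152, 147 and 161 CPM in intact male rats 1, 2, 3, 5 and 6 and at 136, 138, 151, 127 and 147 CPM in GDX rats 1, 2, 4, 5 and 6. GDX rat 4 lay above intact rat 5, and the other 4 GDX rats lay below all intact males. Its log2 fold change was −0.15 (SE 0.05, adjusted p = 0.0743). Gria3 (ENSRNOG00000007682) was at 106, 106, 96.5, 97.9 and 117 CPM in the intact males and at 86.3, 96.7, 94.6, 86.5 and 96.5 CPM in the GDX males, in the same order of rats. GDX rat 2 just exceeded intact rat 3, and the other 4 GDX rats lay below all intact males. Gria3 fell, with a log2 fold change of −0.18 (SE 0.057 and adjusted p = 0.0592). Both calls rested on single rats: Gria4 was not called without GDX rat 1, 2 or 5 or intact rat 1, 2 or 6 (adjusted p from 0.1 to 0.182), nor Gria3 without GDX rat 5 or intact rat 1, 2 or 6 (0.108 to 0.147). Gria1, a subunit involved in activity-dependent insertion of receptors, and Gria2, whose edited form makes the channel nearly impermeable to calcium, were not called. Gria2 averaged 102.8 ± 2.69 CPM in intact and 95.03 ± 11.04 CPM in GDX males (SD, n = 5 each), with a log2 fold change of −0.11 and a 95% interval of −0.25 to 0.029. Gria1 averaged 19.7 ± 2.13 and 18.5 ± 3.26 CPM in these groups.

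In females, Gria4 ran from 147 to 157 CPM with a median of 151 in intact rats and from 133 to 152 CPM with a median of 143 in OVX rats. The ranges overlapped, and the log2 fold change of −0.087 had an unadjusted p of 0.0335 and an adjusted p of 0.445. Gria3 had medians of 95.95 CPM in intact females (range 84.7 to 99.4) and 92.04 CPM in OVX females (81.8 to 94.9).

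NMDA receptors are calcium-permeable channels that need glutamate and a co-agonist to open. Grin1 (ENSRNOG00000011726) encodes the subunit present in every NMDA receptor. It was at 231, 226, 193, 224 and 203 CPM in intact male rats 1, 2, 3, 5 and 6 and at 193, 184, 154, 139 and 156 CPM in GDX rats 1, 2, 4, 5 and 6. The groups did not overlap, although GDX rat 1 and the lowest intact male, rat 3, were equal after rounding. The level in GDX males was 23.2% lower (log2 fold change −0.38, SE 0.081, adjusted p = 0.0121). In this bulk tissue, fewer cells of a type and less RNA per cell cannot be told apart.

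The Grin2 genes encode the glutamate-binding subunits that set the current's time course. Grin2a (ENSRNOG00000033942) was at 51.3, 55.1, 46.4, 53.8 and 53.7 CPM in intact males and 40.1, 50.2, 39.3, 32.8 and 37.7 CPM in GDX males. GDX rat 2 fell inside the intact range and the other 4 GDX rats lay below it. Grin2b (ENSRNOG00000008766) was at 45.6, 43.6, 43.8, 41.6 and 49.3 CPM and 36.1, 44.8, 36.5, 31.6 and 32.5 CPM in the same groups. Here too GDX rat 2 reached the intact range while the other GDX rats were under it. Grin2d (ENSRNOG00000021063), a subunit with slow deactivation, was at 22.7, 25.7, 20.99, 23.98 and 21.8 CPM in intact and 21.2, 19.3, 15.1, 12.5 and 13.1 CPM in GDX males. GDX rat 1 exceeded the lowest intact rat, and GDX rats 5 and 6 were lowest. Grin2d fell by 29.2% (log2 fold change −0.50, SE 0.13, adjusted p = 0.0263), Grin2a by 23% (adjusted p = 0.0195) and Grin2b by 18.7% (adjusted p = 0.0391). Without GDX rat 5, Grin2b was not called (adjusted p = 0.103). Grin2c (ENSRNOG00000003280), the remaining gene of this group, was at 56.5, 59.5, 50.8, 66.8 and 51.4 CPM in intact and 62.3, 56.2, 45.7, 35.8 and 50.6 CPM in GDX males. These groups overlapped widely, GDX rat 5 being the lowest, and the log2 fold change of −0.18 was not called (adjusted p = 0.376). It was −0.086 without GDX rat 5 and −0.28 without GDX rat 1.

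Grin3a and Grin3b encode glycine-binding subunits that lower the calcium permeability of the receptor, and Grin3b is known for its expression in motor neurons. Grin3b (ENSRNOG00000012562) was at 13.3, 11.3, 12.99, 12.4 and 17.6 CPM in intact and 12.2, 9.98, 8.09, 9.43 and 11.9 CPM in GDX males. The ranges overlapped, with GDX rats 1 and 6 above intact rat 2 and intact rat 6 the highest. The log2 fold change was −0.39 (SE 0.13, adjusted p = 0.0842). Grin3b was not called without GDX rat 2, 4 or 5 or intact rat 1, 3, 5 or 6 (adjusted p from 0.102 to 0.193). Grin3a averaged 19.5 ± 1.09 CPM in intact and 18.2 ± 1.79 CPM in GDX males and was not called (adjusted p = 0.487). In all, 5 of the 7 NMDA subunit genes were called lower in males, beside 6.58% of all genes tested. The median log2 fold change of the 7 was −0.38. The GDX libraries were not alike: over all genes, chi-square per degree of freedom was 5.08 between rats 1 and 2 and 7.19 to 9.88 among rats 4, 5 and 6, but 10.8 to 21.8 across these sets. Rats 4, 5 and 6 had the lower Grin1 and Grin2d and the higher sums of meninges and fibroblasts markers, while their Slc17a6 spanned the values of rats 1 and 2. The gene with the most reads took 15.9 to 17.9% of reads in rats 4, 5 and 6. It took 13.5 and 13.8% in rats 1 and 2. TMM factors were 0.948 to 0.964 in rats 4, 5 and 6, against 1.03 and 1.02 in rats 1 and 2. These sets were seen in the data and are not groups of the study. Pairs also stood apart in the female groups. OVX rat 3 was at 16.9 to 19.4 from OVX rats 2, 4 and 6. Intact female rat 1 was at 15.4 to 18.3 from intact female rats 4, 5 and 6. OVX rat 3 had the lowest Grin1 (162 CPM) and Grin2d (15.3 CPM) of its group and the highest meninges and fibroblasts sum (433 CPM).

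In females the same 7 genes had a median log2 fold change of −0.06 and 0 were called by edgeR, with 1 (Grin3b) at an unadjusted p under 0.05 and called by DESeq2. Grin1 ran from 183 to 208 CPM (median 197) in intact and from 162 to 208 CPM (median 195) in OVX females. Its log2 fold change of −0.06 had a 95% interval of −0.18 to 0.058, and ran from −0.091 without OVX rat 5 to −0.025 without OVX rat 3. Grin2d ran from 19.9 to 26.02 CPM (median 21.4) and from 15.3 to 22.99 CPM (median 20.8), with an interval of −0.30 to 0.075 for its log2 fold change. The intervals of both genes included 0. For Grin2a the medians were 46.5 CPM (range 41.8 to 50.3) and 44.3 CPM (38.7 to 51.9). For Grin2b they were 40.04 CPM (38.6 to 43.4) and 39.8 CPM (36.1 to 42.9). In both genes the ranges of intact and OVX females overlapped, and with fragment size class as a term the log2 fold changes turned from −0.034 and −0.026 to 0.04 and 0.019. Grin2c ran from 39.3 to 51.7 CPM (median 45.3) in intact and from 31.5 to 47.5 CPM (median 42.9) in OVX females. Its log2 fold change was −0.115 (95% interval −0.30 to 0.073), and −0.05 without OVX rat 3. Grin3b ran from 9.11 to 16.6 CPM (median 13.3) in intact and from 7.85 to 11.2 CPM (median 8.75) in OVX females. Only intact rat 1 lay within the OVX range. Its log2 fold change of −0.53 (SE 0.13) had an adjusted p of 0.16 in edgeR and 0.0187 in DESeq2. Without intact female rat 1 the edgeR value was 0.049. With fragment size class as a term it was 0.678.

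**Figure D3:**
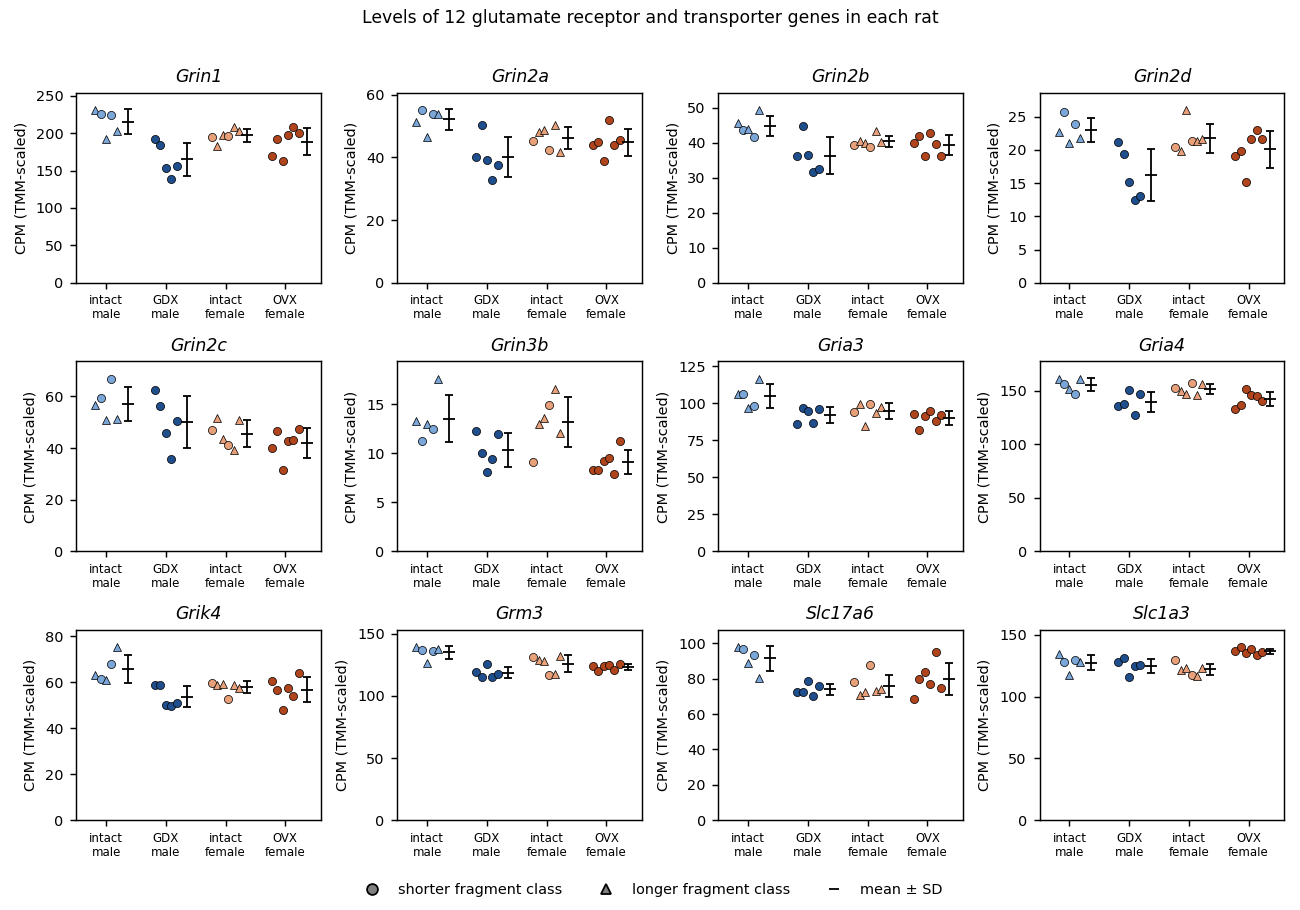
Level in each rat (CPM, TMM-scaled, axes from 0) of the 11 genes called in any comparison and of Slc1a3, by group, with circles for the shorter and triangles for the longer fragment size class and the mean ± SD beside each group. Grin1, Grik4, Grm3 and Slc17a6 do not overlap between intact and GDX males, and Slc1a3 does not overlap between intact and OVX females.

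Kainate receptors act on both sides of the synapse. Grik4 (ENSRNOG00000030910), the kainate subunit gene with the most reads here, encodes a high-affinity subunit that works only together with the products of Grik1 to Grik3. It was at 63.4, 61.4, 60.9, 67.9 and 75.2 CPM in intact and 59.1, 58.8, 50.3, 49.7 and 51.1 CPM in GDX males. GDX rats 1 and 2 came closest to the intact males, the groups did not overlap, and intact rat 6 was highest. The level fell by 18.2% (log2 fold change −0.29, SE 0.07, adjusted p = 0.0208). Grik4 was not called in males with fragment size class as a term or within the shorter class. Nor was it called with the level of meninges and fibroblasts markers as a term (−0.006). Grik5, the other high-affinity subunit, averaged 40.1 ± 2.42 CPM in intact and 35.3 ± 5.09 CPM in GDX males and was not called (log2 fold change −0.18, adjusted p = 0.209), except without GDX rat 1 (0.0797). The pore-forming Grik1, Grik2 and Grik3 were not called in males, with log2 fold changes of −0.21, −0.048 and −0.095. Grik2 averaged 47.8 ± 3.13 CPM in intact and 46.2 ± 4.14 CPM in GDX males. Over the 22 rats, Grik1 ran from 4.33 to 8.73 CPM and Grik3 from 5.11 to 10.2 CPM. In females, Grik4 ran from 52.6 to 59.7 CPM (median 58.9) without and from 48.1 to 63.9 CPM (median 57.1) with ovariectomy, and its log2 fold change was −0.021 (95% interval −0.14 to 0.10), or 0.017 with fragment size class as a term.

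Grid1 (ENSRNOG00000055499), a delta receptor subunit that links synaptic partners through cerebellins and is not opened by glutamate, was at 33.1, 28.1, 27.2, 30.8 and 29.5 CPM in intact and 31.1, 31.9, 28.2, 24.3 and 27.9 CPM in GDX males. GDX rat 5 was the lowest and the other GDX rats fell within the intact range. Its log2 fold change was −0.05 in males (adjusted p = 0.748) and −0.046 in females (adjusted p = 0.852). Intact females ran from 27.1 to 31.3 CPM (median 30.5) and OVX females from 26.5 to 32.8 CPM (median 28.5).

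Among metabotropic receptors, Grm3 (ENSRNOG00000005519) had the most reads. It encodes an inhibitory receptor found on neurons and astrocytes. Grm3 was at 139, 137, 126, 136 and 138 CPM in intact and 119, 116, 126, 115 and 118 CPM in GDX males. The highest GDX rat, rat 4, lay just under the lowest intact rat, rat 3, equal to it after rounding, and the groups did not overlap. The level fell by 12.3% (log2 fold change −0.19, SE 0.042, adjusted p = 0.0154). Grm4, a presynaptic inhibitory receptor, averaged 16.8 ± 1.84 CPM in intact and 12.9 ± 3.21 CPM in GDX males. Its log2 fold change was −0.38 with an adjusted p of 0.113 in edgeR and 0.0751 in DESeq2. Grm5, which couples to calcium release through phospholipase C, averaged 25.3 ± 2.03 and 20.8 ± 3.76 CPM. For Grm5 the log2 fold change was −0.28, with an adjusted p of 0.111 in edgeR and 0.0838 in DESeq2. EdgeR called Grm4 without GDX rat 1 or 2 or intact rat 3 (adjusted p from 0.0435 to 0.0768) and Grm5 without GDX rat 2 or 4 (0.0404 to 0.086). The presynaptic receptors Grm7 and Grm8 were not called in males (log2 fold changes −0.057 and −0.038), and averaged 15.6 ± 1.18 and 10 ± 1.08 CPM in intact males. Of the 5 metabotropic genes tested, 1 was called lower in males, beside 6.58% of all genes tested. In females 0 were called, beside 0.0335% of all genes tested, and edgeR gave 0 of the 5 at an unadjusted p under 0.05. Grm3 in females ran from 117 to 132 CPM (median 128) with and from 119.8 to 126 CPM (median 124) without ovaries.

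Slc17a6 (ENSRNOG00000016147) encodes the vesicular transporter of most excitatory interneurons of the spinal cord, and took 98.7% of the reads of the 3 vesicular transporter genes in intact males. It was at 97.7, 96.5, 88.7, 93.5 and 80.6 CPM in intact male rats 1, 2, 3, 5 and 6 and at 72.7, 72.5, 78.5, 69.9 and 75.9 CPM in GDX rats 1, 2, 4, 5 and 6. All GDX rats lay under the lowest intact male, rat 6. The level fell by 19.1% (log2 fold change −0.31, SE 0.055, adjusted p = 0.0068), the lowest adjusted p among the 26 genes in males. Intact females ran from 70.5 to 87.5 CPM (median 73.5) and OVX females from 68.4 to 95.2 CPM (median 78.3). These 2 ranges overlapped, and the log2 fold change of 0.075 had a 95% interval of −0.072 to 0.22. It was 0.019 without OVX rat 5, the highest, and −0.05 with fragment size class as a term.

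The 3 plasma membrane transporters tested in males were not called, and Slc1a6 was not tested there. Slc1a2 (ENSRNOG00000005479), the main astrocytic glutamate transporter, was at 381, 388, 423, 389 and 439.8 CPM in intact and 383, 365, 387, 383 and 398 CPM in GDX males. GDX rat 2 was below all intact males and the other 4 lay within the intact range. The log2 fold change of −0.077 had a 95% interval of −0.18 to 0.026. Slc1a1, the neuronal transporter, averaged 38.5 ± 3.06 CPM in intact and 35.6 ± 1.44 CPM in GDX males (adjusted p = 0.275). In females Slc1a2 ran from 372 to 442 CPM (median 410.4) in intact and from 382 to 410 CPM (median 389) in OVX rats.

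Slc1a3 (ENSRNOG00000016163), an astrocytic transporter chosen for this account after its values were seen, was at 135, 128, 117, 130 and 128 CPM in intact and 128, 131, 116, 125 and 126 CPM in GDX males, with 4 of the 5 GDX rats in the intact range and a log2 fold change of −0.029. In females it ran from 117 to 129.8 CPM (median 122) in intact and from 133 to 139.9 CPM (median 136) in OVX rats. Every OVX rat lay above every intact female. Slc1a3 was the 1 glutamate gene of 27 with groups that did not overlap, beside 0.302% of all genes tested likewise higher and 0.241% lower. The log2 fold change was 0.17 (SE 0.034, unadjusted p = 0.000141), with an adjusted p of 0.149 in edgeR and 0.00249 in DESeq2. Without intact female rat 1, the highest of the intact females, the edgeR value was 0.049. With fragment size class as a term the log2 fold change was 0.15 (adjusted p = 0.584), and within the shorter class it was 0.14 (0.756). Astrocyte markers in the same libraries summed to 8338 ± 595 CPM in intact and 8866 ± 422 CPM in OVX females, with 0 of 8 called by edgeR, 3 at an unadjusted p under 0.05 and a median log2 fold change of 0.057.

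In the male comparison, 3 intact libraries were of the longer fragment size class and no GDX library was, so that only intact rats 2 and 5 shared a class with the GDX rats. With class as a term, 5 of the 10 genes were still called and 796 genes in all: Grin1 (−0.44, adjusted p = 0.0573), Grin2a (−0.44, 0.0701), Grin2d (−0.61, 0.0719), Grm3 (−0.20, 0.0798) and Slc17a6 (−0.36, 0.0546), in log2 fold change. Within the shorter class, with 2 intact and 5 GDX males, Grin1 (−0.44, adjusted p = 0.0872) and Slc17a6 (−0.36, adjusted p = 0.0857) were called among 440 genes. There the log2 fold change was −0.44 for Grin2a, −0.61 for Grin2d and −0.20 for Grm3, each farther from 0 than over all libraries. It was nearer 0 for Gria3 (−0.14), Gria4 (−0.12), Grin2b (−0.23), Grin3b (−0.20) and Grik4 (−0.26).

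Markers of several cell types were also called in the male comparison, where 6.58% of all genes tested were called lower and 6.78% higher. The 8 pan-neuronal markers, with Nefl the most abundant, summed to 8320, 7811, 8660, 7900 and 10080 CPM in intact males and 7391, 7712, 7182, 7075 and 7884 CPM in GDX males, and 3 of 8 (Rbfox3, Snap25 and Map2) were called lower. The sums overlapped only at GDX rat 6, which exceeded the lowest intact rat. Of the 5 markers of inhibitory neurons, 2 were called lower (Slc6a5 and Slc32a1), their sum being 542, 549.7, 450, 501 and 441.1 CPM in intact and 424, 419, 379, 326 and 395 CPM in GDX males. Of 8 motor neuron markers 1 was called lower (Slc18a3), and the sums averaged 702 ± 179.6 and 663 ± 50.95 CPM. The direction of these sums turned within the shorter fragment size class. Intact rats 2 and 5 were at 553.6 and 567.3 CPM, below every GDX rat (596.5 to 739.1 CPM). All 7 markers of meninges and fibroblasts were called higher in GDX males, with Col1a1 the most abundant. Their sum was 175, 119, 124, 78.4 and 59.8 CPM in intact male rats 1, 2, 3, 5 and 6 and 157, 267, 389, 497 and 414 CPM in GDX rats 1, 2, 4, 5 and 6. GDX rat 1 lay below intact rat 1, and the other 4 GDX rats lay above all intact males. All 6 endothelial markers (Slc2a1 the most abundant) and 3 of 8 astrocyte markers (Gfap, the most abundant, Aqp4 and S100b) were called higher. Astrocyte sums were 7370, 7763, 8223, 8129 and 7745 CPM in intact and 9090, 9165, 8893, 10210 and 9281 CPM in GDX males, without overlap, and endothelial sums averaged 175 ± 14.6 and 241 ± 22.04 CPM. In females the pan-neuronal sum averaged 8581 ± 499.6 CPM in intact and 7559 ± 521 CPM in OVX rats, with 0 of 8 markers called by edgeR and 4 at an unadjusted p under 0.05. The endothelial sum averaged 206 ± 38.2 and 265 ± 31.1 CPM there, with 1 of 6 called and 5 at an unadjusted p under 0.05. For the pan-neuronal sum, intact female rats 1 and 4, of the shorter fragment size class, were at 7779 and 8439 CPM.

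In fits chosen after the data were seen, the level of a marker list was added as a term to the male comparison. With the meninges and fibroblasts level, 0 of the 26 glutamate genes were called by edgeR, and 7 genes in all. The log2 fold change was then −0.20 for Grin1, −0.12 for Grin2d, −0.006 for Grik4, −0.18 for Grm3 and −0.42 for Slc17a6. With the pan-neuronal level, Slc17a6 alone of the 26 was called (−0.41, adjusted p = 0.0796), with −0.42 for Grin1, −0.56 for Grin2d and −0.078 for Gria3, and 8 genes were called in all. These levels differ between the groups themselves, and their part in the result was not tested.

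**Figure D4:**
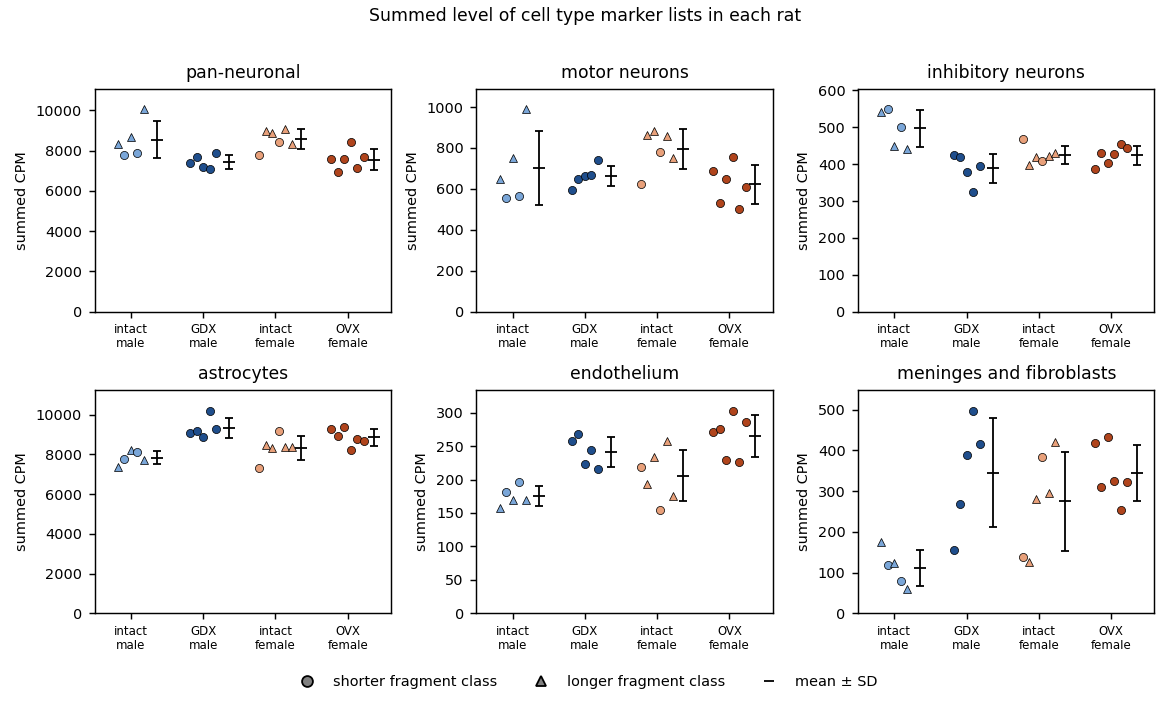
Summed CPM of 6 marker lists in each rat (vertical axes from 0), by group, with circles for the shorter and triangles for the longer fragment size class and the mean ± SD beside each group. The meninges and fibroblasts sum runs from 59.8 to 175 CPM in intact males and from 157 to 497 CPM in GDX males.

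Other marker lists gave the setting of the tissue pieces. In males, 2 of 8 oligodendrocyte markers (Mbp, the most abundant, and Ermn), 1 of 6 precursor markers (Pdgfra) and the 1 erythroid marker tested (Hbb) were called higher. Prx, made by Schwann cells, was called higher as well (1.07, adjusted p = 0.0955), and Drp2, of the same cells, was not (0.16, adjusted p = 0.209). None of the 6 microglia markers, the 5 dorsal horn markers tested or the 3 markers of dorsal root ganglion neurons tested was called by edgeR there, with 1, 1 and 0 at an unadjusted p under 0.05. Markers defining ventral cord were present: motor neuron markers summed to 793 ± 97.7 CPM in intact females, and each of the 8 had reads in every library. Dorsal horn markers summed to 25.3 ± 3.98 CPM in intact females, with Lmx1b and Npy at 0 reads in at least 1 library. Ganglion markers summed to 52.7 ± 7.25 CPM in intact females, with Calca the most abundant, and Mrgprd was at 0 in all 22 libraries. In OVX against intact females, edgeR called 0 of 8 motor neuron markers, 7 having an unadjusted p under 0.05, and their median log2 fold change was −0.35. The motor neuron sum averaged 623 ± 96.2 CPM in OVX females, and was 624.9 and 778.2 CPM in intact female rats 1 and 4, of the shorter fragment size class. Among the other lists 1 endothelial marker (Kdr) was called higher in OVX females. Markers called between intact rats included Snap25, Slc6a5 and Gpr17, higher in males, and Cdh5, Prx (−1.50, adjusted p = 0.027) and Drp2 (−0.24, adjusted p = 0.081), lower in males. Between GDX males and OVX females, and for the difference between the responses, edgeR called 0 markers. For that difference, an unadjusted p under 0.05 was reached by 6 of 7 meninges and fibroblasts markers, 3 of 5 inhibitory neuron markers, Prx and Drp2, among others.

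The sexes were compared among intact rats. Grin2c, Grik4 and Slc17a6 were higher in intact males than in intact females, 3 of 26 genes called, while 4.01% of the 14937 genes tested were called, 1.45% higher and 2.56% lower in males. This comparison shares the intact males with the castration comparison and the intact females with the ovariectomy comparison, so that the results are not independent of each other. Grin2c was at 56.5, 59.5, 50.8, 66.8 and 51.4 CPM in intact males and from 39.3 to 51.7 CPM (median 45.3) in intact females. Intact male rats 3 and 6 lay within the female range and the other 3 above it, and the log2 fold change of males against females was 0.33 (SE 0.083, adjusted p = 0.0518). For Grik4 every intact male lay above every intact female, the 1 gene of 26 whose groups did not overlap, beside 1.19% of genes tested that were likewise higher and 1.48% that were lower. Grik4 differed by 0.19 (SE 0.056, adjusted p = 0.0961). Slc17a6 differed by 0.27 (SE 0.06, adjusted p = 0.0267), with 4 of the 5 intact males above all intact females and male rat 6 within their range.

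The median log2 fold change of the 26 genes between intact males and females was 0.073, against 0.00285 over all genes tested, and 8 had an unadjusted p under 0.05, beside 2317 of all 14937. Within the shorter fragment size class, with 2 rats of each sex, 0 of the 26 were called by edgeR, beside 34 genes in all, and the log2 fold change was 0.52 for Grin2c, 0.20 for Grik4 and 0.20 for Slc17a6. Over all intact rats, 5 of 7 meninges and fibroblasts markers were called lower in intact males than in intact females, and the sum averaged 111 ± 44.7 and 275 ± 122 CPM. With that level as a term, 0 of the 26 genes were called by edgeR, beside 33 genes in all, with 0.24 for Grin2c, 0.061 for Grik4 and 0.37 for Slc17a6, and its part in the result was not tested. Slc17a6 was called in 11 of 11 fits that left out 1 rat. Grin2c was called in 5 of 11, being missed without intact male rat 1, 2 or 5 or intact female rat 3, 4 or 5 (adjusted p from 0.102 to 0.137). Grik4 was called in 3 of 11, being missed without intact male rat 1, 5 or 6 or intact female rat 2, 3, 4, 5 or 6 (0.116 to 0.196). Without intact male rat 3, Grin1 (0.0691) and Grin2a (0.06) were called as well.

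Rats without gonads were compared between the sexes in libraries of the shorter class alone, with the same GDX and OVX rats as in the comparisons with intact rats. Of 27 genes, 0 were called by edgeR, beside 0.232% of the 15084 genes tested, 5 had an unadjusted p under 0.05 (Grin1, Grin2c, Grin2d, Grm5 and Slc1a3), beside 1413 genes in all, and DESeq2 called 0, beside 130 genes in all. The log2 fold change of GDX males against OVX females was −0.19 for Grin1 (95% interval −0.37 to −0.008) and 0.26 for Grin2c (0.003 to 0.52). For Grin2d it was −0.30 (−0.59 to −0.011). The Grin2c value was 0.17 without GDX rat 1 and 0.36 without GDX rat 5. Slc1a3 was lower in every GDX male than in every OVX female (−0.13, adjusted p = 0.319), the 1 gene of 27 that was lower without overlap, beside 0.597% of genes tested that were lower and 0.756% that were higher without overlap.

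Whether castration and ovariectomy acted differently was tested directly, as the difference between the responses. EdgeR called 0 of 28 glutamate genes, beside 0.116% of the 15562 genes tested (0.0257% lower and 0.09% higher in males). Of the 28, 8 had an unadjusted p under 0.05, beside 1810 of all 15562, and DESeq2 called 2, beside 243 genes in all. For Slc17a6 the male response minus the female response was −0.38 (95% interval −0.57 to −0.18, adjusted p = 0.137 in edgeR and 0.0371 in DESeq2). For Slc1a3 the difference was −0.19 (−0.30 to −0.082, adjusted p = 0.161 and 0.0567). Grin1 had −0.32 (−0.53 to −0.10), Grin2a −0.34 (−0.58 to −0.10), Grin2b −0.27 (−0.47 to −0.066) and Grin2d −0.38 (−0.72 to −0.046). The 2 others at an unadjusted p under 0.05 were Grik4 (−0.26) and Grm3 (−0.16). Single rats decided edgeR's count: Grin1 (adjusted p = 0.0828), Slc17a6 (0.0897) and Slc1a3 (0.0949) were called without GDX rat 1, and Grin2a (0.0773) and Grin2b (0.0771) without GDX rat 2. Slc1a3 was also called without intact male rat 3 (0.0993) or intact female rat 1 (0.0907), and Slc17a6 without OVX rat 1 (0.0865). The median over the 28 genes was −0.14, against 0.00168 over all genes tested. A decline of these genes in males alone was therefore not established at the adjusted threshold by edgeR.

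Partners of these genes were followed in 4 lists of 59 genes, of which 57 matched the table and 56 were tested in males. In GDX males 11 were called lower and 2 higher, 23.2% of the 56, beside 13.4% of all genes tested (6.58% lower and 6.78% higher), and the median log2 fold change was −0.075. Of the 18 postsynaptic scaffold genes 4 were lower and 1 higher. Dlgap2, which links scaffolds to the receptor complex, was lower (−0.48, SE 0.08, adjusted p = 0.00554), and Homer2, which ties metabotropic receptors to calcium stores, was higher (0.23, adjusted p = 0.0982). Of 14 signalling genes 2 were lower, among them Plcb1 (−0.25, SE 0.045, adjusted p = 0.00731), the phospholipase below metabotropic receptors. Of 11 auxiliary subunits of AMPA and kainate receptors 2 were lower. Of 13 genes of glutamate synthesis and the glutamine cycle 3 were lower and 1 higher, Slc7a11, the cystine and glutamate exchanger (0.73, SE 0.12, adjusted p = 0.00607). In females edgeR called 0 of 56, with 10 at an unadjusted p under 0.05. Between intact males and females, 0 of 56 were higher in males and 2 were lower, beside 1.45% and 2.56% of all genes tested: Homer2 (−0.30, adjusted p = 0.0751) and Slc7a11 (−0.47, adjusted p = 0.0765). EdgeR called 0 of 56 between GDX males and OVX females, with 13 at an unadjusted p under 0.05, and 0 for the difference between the responses, with 11.

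Subunit make-up was described by the share of reads within a family, which is not corrected for gene length and was not tested. In males, Gria4 took 40.7 ± 0.178% of AMPA subunit reads with testes and 40.5 ± 1.55% without (SD). In females it took 41.5 ± 0.945% with ovaries and 40.4 ± 1.3% without. Gria2, the subunit that limits calcium entry, took 26.9 ± 0.673%, 27.4 ± 1.46%, 26.7 ± 0.772% and 27.9 ± 1.93% in the same order. The group means of both genes lay within about 1 SD of each other in males. The ratio of Grin2a to Grin2b reads was 1.17 ± 0.105 in males with testes and 1.1 ± 0.0463 in those without, against 1.14 ± 0.0648 in females with ovaries and 1.14 ± 0.0796 in those without. In the 2 intact males of the shorter fragment size class, the class of all GDX libraries, the ratio averaged 1.28. Grin2d took 13.02 ± 0.579% of Grin2 reads in intact and 11.3 ± 1.26% in GDX males, against 14.2 ± 1.38% in intact and 13.7 ± 1.02% in OVX females. Grin2c took 32.2 ± 2.44% in intact and 35 ± 3.2% in GDX males, and averaged 34.1% in the 2 intact males of the shorter class.

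**Figure D5:**
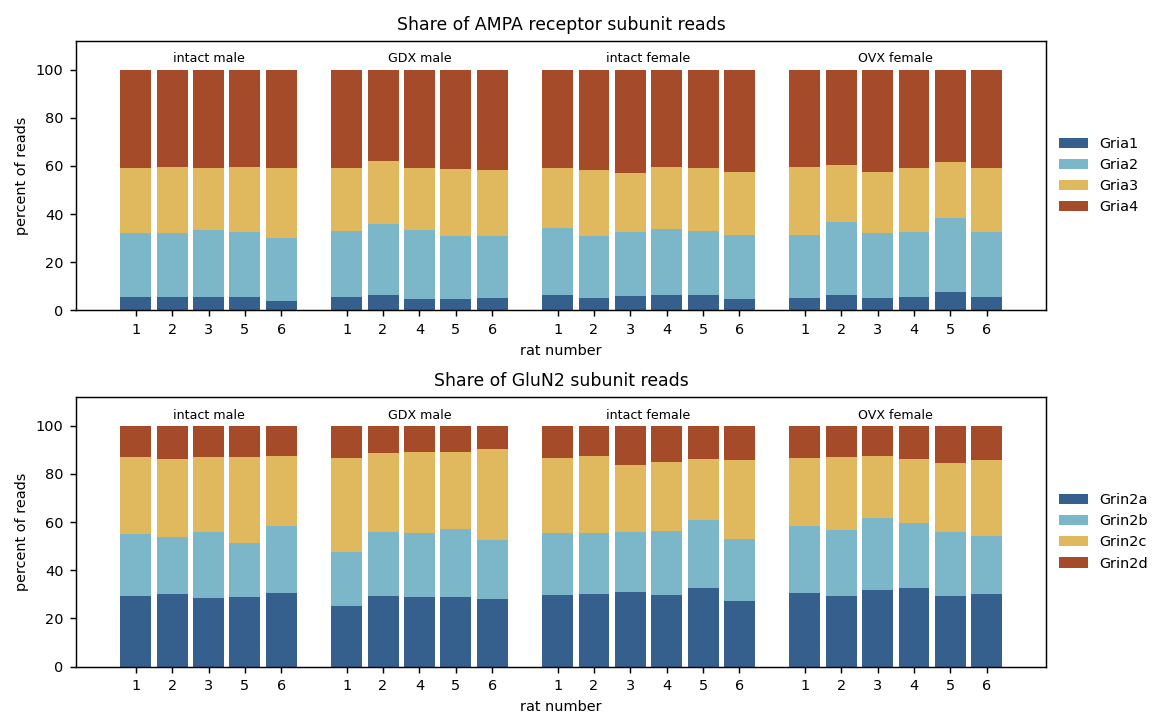
Percent of reads (vertical axis) from each of the 4 AMPA subunit genes (top) and the 4 Grin2 genes (bottom) in each rat (horizontal axis, rat number within group), as stacked bars that sum to 100. Gria4 takes 37.8 to 42.8% of AMPA subunit reads in every rat, and Grin2d takes 9.78 to 16.4% of Grin2 reads.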

How the data were processed

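The authors deposited raw counts, whole numbers of reads per gene for 22 libraries, 1 per rat. The study's methods name Trimmomatic, Hisat2 and Subread featureCounts with the Rnor_6.0 assembly, while the submitters' processing notes list TopHat2 2.0.13 in place of Hisat2. The labels name a TruSeq kit and the methods a SMARTer stranded total RNA kit. Settings for strand, multi-mapping reads and overlapping genes are not given, so that reads of overlapping genes could not be told apart.

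Rats were grouped by sex and surgery as labelled. Intact males are spelled Inact in the table's header. Each comparison used its own groups (the difference between responses used all 4), in R 4.3.3 with edgeR 4.0.16 (limma 3.58.1): filterByExpr (minimum count 10), TMM scaling, then glmQLFit with glmQLFTest. P-values were adjusted by Benjamini-Hochberg across every gene tested. SE was the size of the log2 fold change divided by the root of F, and 95% intervals used the degrees of freedom of that test. Alternatives tried were RLE factors, DESeq2 1.42.0, omitting the filter, fragment size class, all rats in 1 fit, a rat-number block, a threshold of 0.05 and leaving out each rat, and 2 chosen after the data were seen, the meninges and fibroblasts level or the pan-neuronal level as a term. The code, not the calls, was tested on simulated data. DESeq2 counts were made for the glutamate genes and for all genes, not for the partner and marker lists. Fragment size class came from the study's description of its libraries.

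Genes called in any comparison and the gene with the most reads in each class were given with the value of every male, and with the lowest, median and highest female. Of the pathway lists, those 2 called genes per direction with the lowest adjusted p were named. Members and lists were chosen with earlier results of these data known. Of the marker genes, Itgam, Col1a2, Pecam1 and Hba-a1, and of the pathway genes Shisa9 and Gsg1l, did not match by symbol. Reads carried no molecular identifiers, so that intervals cover counting error and the spread between rats only. Upstream sequences were matched by symbol to RefSeq promoters and cut to the 250 bases before the start. The range of library totals and the group medians are in the report.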

Additional observations from a re-analysis of the deposited data

Results flagged for a closer look

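In each group of 5 or 6 rats, the rat farthest from the others was examined for every gene's CPM, read share and marker sum. In 11 of 224 groups (4.91%) 1 rat stood apart by Dixon's 95% criterion, where chance gives about 5% (1 in 20). Low values were Grik4 in intact female 4 (52.6 CPM, others from 57.6 to 59.7), Grik5 in intact male 6 (35.9 CPM, others from 40.7 to 41.9), Grm3 in intact male 3 (126 CPM, others from 136 to 139), the Gria1 share of AMPA subunit reads in intact male 6 (4.04%, others from 5.35 to 5.57), the Gria4 share in GDX male 2 (37.8%, others from 40.9 to 41.7) and the summed oligodendrocyte markers in OVX female 4 (23230 CPM, others from 25400 to 26560). High values were Grin2d in intact female 3 (26.02 CPM, others from 19.9 to 21.6), Grm7 in intact male 2 (17.7 CPM, others from 14.8 to 15.4), Grm2 in OVX female 5 (1.12 CPM, others from 0.289 to 0.495), Slc17a7 in intact female 3 (1.12 CPM, others from 0.146 to 0.454) and the Slc17a7 share of vesicular transporter reads in the same rat (1.51%, others from 0.166 to 0.601). Grm2 and Slc17a7 rest on at most 18 reads in a library.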

How the results depend on the processing

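For GDX against intact males, 1995 genes and 10 glutamate genes were called. Over the 10 settings other than leaving out a rat, DESeq2 among them, 7 to 2395 genes and 0 to 12 glutamate genes were called. With fragment size class as a term the counts were 796 and 5, and in the shorter class 440 and 2. At a threshold of 0.05 the count was 1264 genes. With rat number as a block it was 1274, although rats of different groups share only a number: their residual correlations ran from −0.0769 to 0.00113 in males, −0.058 to 0.0309 in females, −0.114 to −0.0377 between intact rats and −0.0915 to 0.0626 between gonadectomized rats. With the meninges and fibroblasts level as a term, a choice made after the data were seen, 7 and 0 were called (Grin2c turned to 0.16 and Grm4 to 0.017), and with the pan-neuronal level, chosen likewise, 8 and 1. Leaving out 1 rat gave 1202 (without GDX 5) to 2446 genes (without GDX 1) and 6 to 11 glutamate genes, likewise without GDX 5 and GDX 1. Slc17a6, Grin1, Grin2a, Grin2d, Grik4 and Grm3 were called in 10 of 10 such fits, Grin2b in 9, Gria3 in 6, Gria4 in 4 and Grin3b in 3. For OVX against intact females (5 genes, 0 glutamate genes), DESeq2 called 174 and 2, no filter 11 genes, class as a term 3, all 22 rats 9, the block 0 and the 0.05 threshold 1. Leaving out 1 rat gave 0 (without OVX 1 or 6) to 113 genes and 0 to 2 glutamate genes, the highest of both without intact female 1. Uncalled values turned direction with class as a term (Grin2a 0.04, Grin2b 0.019, Grik4 0.017, Slc17a6 −0.05) and in the shorter class (Grin2a 0.037, Grin2b 0.015, Grik4 0.014, Slc17a6 −0.054). Leaving out 1 rat moved Grin2a from −0.081 to 0.00 and Grik4 from −0.056 to 0.018. Between intact males and females (599 genes, 3 glutamate genes), the shorter class gave 34 and 0, the block 255 and 1, the 0.05 threshold 333 and 1, the meninges and fibroblasts level 33 and 0, and all 22 rats 1 glutamate gene. Over the 10 settings other than leaving out a rat, 33 to 820 genes and 0 to 4 glutamate genes were called between intact rats. Leaving out 1 rat gave 352 (without intact male 1) to 777 genes (without intact female 1) and 1 to 5 glutamate genes (1 without intact male 1 or 5 or intact female 3, 4 or 5, and 5 without intact male 3). In the shorter class Gria4 turned to −0.029 and Grin3b to −0.006, and Grin3b ran from −0.071 to 0.12 with 1 rat left out. Between GDX males and OVX females (35 genes, 0 glutamate genes), DESeq2 called 130 genes and all 22 rats gave 61. Leaving out 1 rat gave 23 (without OVX 1) to 44 genes (without GDX 1) and 0 glutamate genes, with Gria4 from −0.052 to 0.014. For the difference between responses (18 genes, 0 glutamate genes), DESeq2 called 243 and 2, no filter 33 genes, class as a term 6, the shorter class 5 (Gria4 0.008), the block 0 and the 0.05 threshold 2. Leaving out 1 rat gave 1 (without GDX 5) to 275 genes and 0 to 3 glutamate genes (both highest without GDX 1), with Grin2c from −0.15 to 0.034. Of the values of single genes and read shares, 440 kept direction and side of the threshold in settings other than leaving out a rat, 49 lost and 12 gained a call, 13 turned direction, and 2 moved in the shorter class (the Grin2a to Grin2b ratio in intact males to 1.28 and the Gria2 share in intact females to 27.6%). With 1 rat left out, 798 kept both, 32 lost and 18 gained a call, and 8 turned direction. The cause of these changes was not tested. Fits in the shorter class or with 1 rat left out also held fewer rats. Grm2, Grm6 and Slc17a7 had too few reads to pass the filter.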
